A study of Mus musculus with 84 samples.

Results

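RNA of 7 of the 84 mouse livers in the study was isolated at the U.S. EPA, and RNA of the other 77 at Expression Analysis Genomic Services (EA). The mice described here are the 28 of the 4 groups in which both isolators occur, 7 isolated at EPA and 21 at EA, found from the isolator named in the sample labels. The comparison asks which kinds of transcripts depended on the site where RNA was isolated, with exposure group and experimental block held constant.

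All mice were B6C3F1 males, labelled as 8 weeks old, and received AIN-93G diet with or without an organophosphate pesticide for 7 days. Con0ppm mice received no pesticide, FT20ppm mice fenthion at 20 ppm, MT100ppm mice methidathion at 100 ppm, and MT10ppm mice methidathion at 10 ppm. Each of Con0ppm, FT20ppm and MT100ppm held 2 EPA mice, 1 of block 3 and 1 of block 4, beside 5 EA mice of blocks 1, 3 and 4. MT10ppm held 1 EPA mouse, of block 1, beside 6 EA mice. The 8 remaining groups of the study held 56 mice, all isolated at EA, and served only as an outside reference for gene levels. The labels give 1 isolation protocol for both sites, so anything else that the 7 EPA mice shared cannot be told apart from the site.

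In an RNA isolation, frozen tissue is broken up in a reagent that keeps RNA in solution while protein and DNA are removed, and the RNA is then concentrated on a silica column. TempO-Seq, the assay used, does not copy the transcript itself. Pairs of short detector oligos, the probes, anneal side by side on target stretches of messenger RNA and are ligated. The ligated pair is amplified and counted, so genes are read at short target stretches and not along the whole transcript. The paper gives more probes than target genes, so some genes can be read at more stretches than others. Whether the number of probes per gene varies with transcript length was not tested. Hepatocytes make up most of the liver, and their most abundant transcripts encode secreted plasma proteins and metabolic enzymes.

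The deposited values were estimated counts per gene, and they are given below as CPM, counts scaled to a fixed total per mouse. Totals lay between 9615000 and 13327000 counts in the EPA mice and between 9775300 and 15301000 in the 21 EA mice, and the difference did not pass the exact permutation test described next (p = 0.856). At the lowest and highest depth among the 28 mice, 3 counts correspond to 0.312 and 0.196 CPM. These floors cover counting error only, since amplified reads without molecular identifiers are not independent molecules.

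More genes were detected in every EPA mouse than in any EA mouse. EPA mice had between 14563 and 15899 genes with at least 1 count (median 14918), the 21 EA mice between 13601 and 14272 (median 13836), and the 56 EA mice of the other groups between 13333 and 14280. Both FT20ppm mice isolated at EPA stood highest, at 15899 and 15734 genes, and the MT10ppm mouse and a control mouse lowest, at 14563 and 14607. Isolator labels were exchanged in every possible way within the combinations of group and block that held both sites, 7 EPA and 10 EA mice. The difference of means after centring each combination was 1237 genes, with a two-sided p of 0.00231, the smallest that this exact permutation test can give, and 0.0116 after Benjamini-Hochberg adjustment over 5 library measures. Without both EPA mice of FT20ppm the difference was 978 genes. The 10 highest genes took 18.8% ± 1.45 of the counts in EPA mice (SD, n = 7) and 20.4% ± 1.66 in EA mice (SD, n = 21), and the exact permutation p adjusted over the 5 measures was 0.0984. The 100 highest genes took 46.3% ± 2.15 and 48.5% ± 1.79, with an adjusted p of 0.0733 in the same exact permutation test. Of the values above 0, 14.4% ± 0.218 were not whole numbers in EPA mice and 14.2% ± 0.404 in the 21 EA mice, ranges that overlapped although the difference within combinations passed the exact permutation test (0.300 percentage points, adjusted p = 0.0463).

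**Figure D1:**
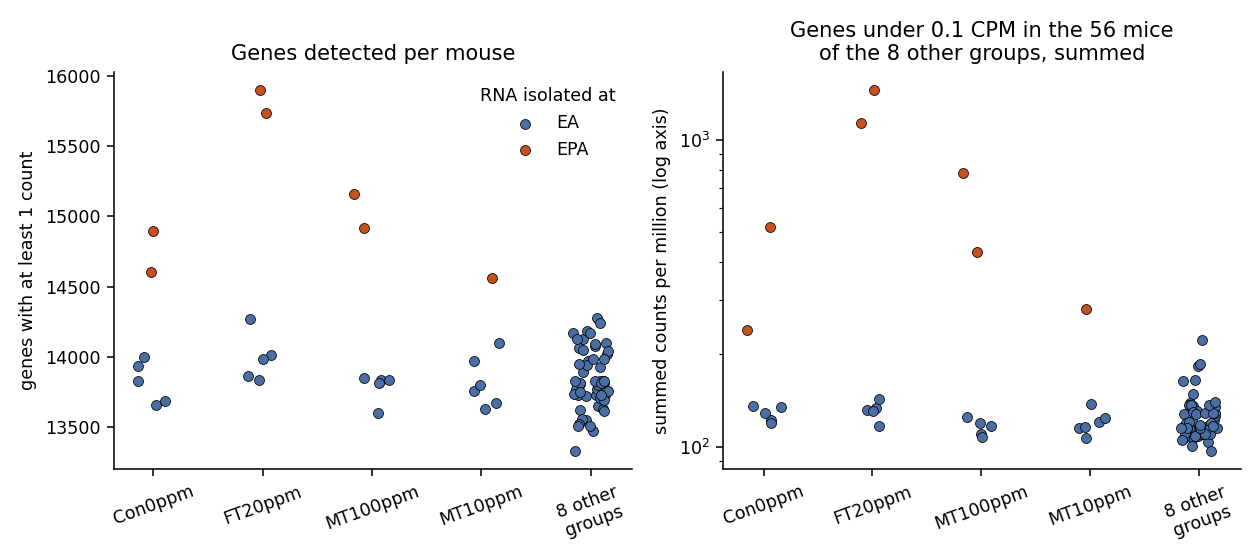
Genes with at least 1 count (left) and summed CPM of the genes that lay under 0.1 CPM in the 56 mice of the 8 other groups (right, log axis), 1 point per mouse, by group and isolator. The 7 EPA mice lie above all 77 EA mice in both panels, and the FT20ppm mice isolated at EPA are the highest.

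The added genes were largely genes that liver does not use. In the 56 EA mice outside the comparison, 4327 of the 17695 genes in the table lay under a mean of 0.1 CPM. The choice of these genes was made after the values had been seen, so their levels are given without a test. EPA mice had between 1496 and 2772 of them with at least 1 count (median 1832) and the 21 EA mice between 768 and 1139 (median 907). Their summed level was 240.5 and 519.5 CPM in the Con0ppm mice isolated at EPA, 1460 and 1139 in FT20ppm, 431.02 and 781 in MT100ppm and 280.2 in MT10ppm. In the 21 EA mice it lay between 106.3 and 143 CPM. In the EA mice of FT20ppm it did not exceed 143, so the high values of that group were found in its EPA mice. Among the 56 outside mice it reached 222 CPM, in replicate 1 of PT80ppm (parathion at 80 ppm), near the lowest EPA mouse. The EPA mice differed widely among themselves, and the mouse of block 4 stood above that of block 3 in Con0ppm and MT100ppm but not in FT20ppm.

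Among genes with counts in the outside mice, the classes of lower level there had the larger ratio of means between sites. Among the 251 genes with a mean of 0 in the outside mice, the mean over genes was 0.301 CPM in EPA mice and 0.00168 CPM in the 21 EA mice. Of these 251 genes 100% had the higher mean in EPA mice, so each had counts in the mice compared. Without counts outside, a gene entered this class only through such counts. The choice of the class thus largely fixed its ratio, which cannot be read as part of the relation to level. For 3131 genes between 0.01 and 0.1 CPM the means were 0.130 and 0.0371 CPM, and for 3338 genes between 0.1 and 1 CPM they were 0.579 and 0.384 CPM. Genes between 1 and 10 CPM averaged 4.71 and 3.98 CPM, and the 1382 genes above 100 CPM averaged 587 and 601 CPM. Without the FT20ppm mice, the EPA mean of the 3 lowest of these 5 classes was 0.131, 0.102 and 0.542 CPM.

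The 4327 genes near 0 include the 251 without counts in the outside mice, among them Gm20777 and Gm21292 of the Y chromosome. The ratios and shares given here were therefore in part fixed by the choice of genes. Among the 4327, protein-coding genes were 5.73 times higher in EPA mice on average (0.154 against 0.0269 CPM over 3212 genes), and 87.4% of them had the higher mean in EPA mice. Processed pseudogenes, intronless copies of expressed genes, did not share this: 707 of them averaged 0.0422 CPM in EPA and 0.0364 CPM in EA mice, and 47.5% had the higher mean in EPA mice. The 41 unprocessed pseudogenes averaged 0.189 against 0.0166 CPM. Coding genes of 1 exon averaged 0.294 against 0.0160 CPM (237 genes), those of 2 to 7 exons 0.163 against 0.0248 CPM, and those of 8 or more exons 0.119 against 0.0315 CPM. Coding genes whose counts were not all whole, because reads were divided between genes, averaged 0.362 CPM in EPA mice, and those with whole counts only 0.122 CPM. With whole counts only, autosomal coding genes averaged 0.121 CPM in EPA mice (2657 genes) and those of the X chromosome 0.112 CPM (118 genes), beside 0.0281 and 0.0280 CPM in EA mice. The 19 coding genes of the Y chromosome near 0 averaged 1.38 CPM in EPA and 0.00180 CPM in EA mice. Without the FT20ppm mice these Y genes averaged 0.512 CPM in EPA mice and all coding genes near 0 averaged 0.0879 CPM.

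Several large gene families that are silent in liver showed the pattern most plainly, and were picked for that after their values were seen. Olfactory receptors, the odorant receptors of the nasal epithelium, summed to between 8.93 and 55.3 CPM in EPA mice (median 14.8) and between 1.70 and 4.88 CPM in the 21 EA mice (median 2.90) over 112 genes, or 104 to 532 counts against 21 to 48. Vomeronasal receptors, which sense pheromones, summed to between 28.2 and 557 counts in EPA mice and at most 7.95 in EA mice over 60 genes. Keratin-associated proteins, structural proteins of hair, summed to between 53.5 and 360 counts over 28 genes, and to at most 5.12 in EA mice. No EPA mouse overlapped the EA mice in any of these 3 families. The Btbd35f family, 9 X-linked genes with near-identical copies, held between 2.003 and 179 counts in EPA mice and at most 1 in EA mice. The 23 genes of the Y chromosome near 0 held between 37.4 and 766 counts in EPA mice and at most 3 in EA mice, a level at or under the floor of 3 counts.

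Other families moved less. The Pramel family of germline genes (21 genes) summed to between 2.33 and 36.6 CPM in EPA and between 1.53 and 3.47 CPM in EA mice, so the ranges overlapped, and the ratio of means fell from 6.32 to 2.96 without the FT20ppm mice. T cell receptor V segments (54 genes) summed to between 1.95 and 12.9 CPM against 0.605 to 2.34 CPM, with a ratio of means of 4.10, or 2.24 without FT20ppm. Clustered protocadherins, adhesion proteins of neurons, summed to between 20.9 and 29.6 CPM against 10.5 to 14.9 CPM over 45 genes, a ratio of 1.90, or 1.82 without FT20ppm, and here the FT20ppm mice stood little above the rest.

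**Figure D2:**
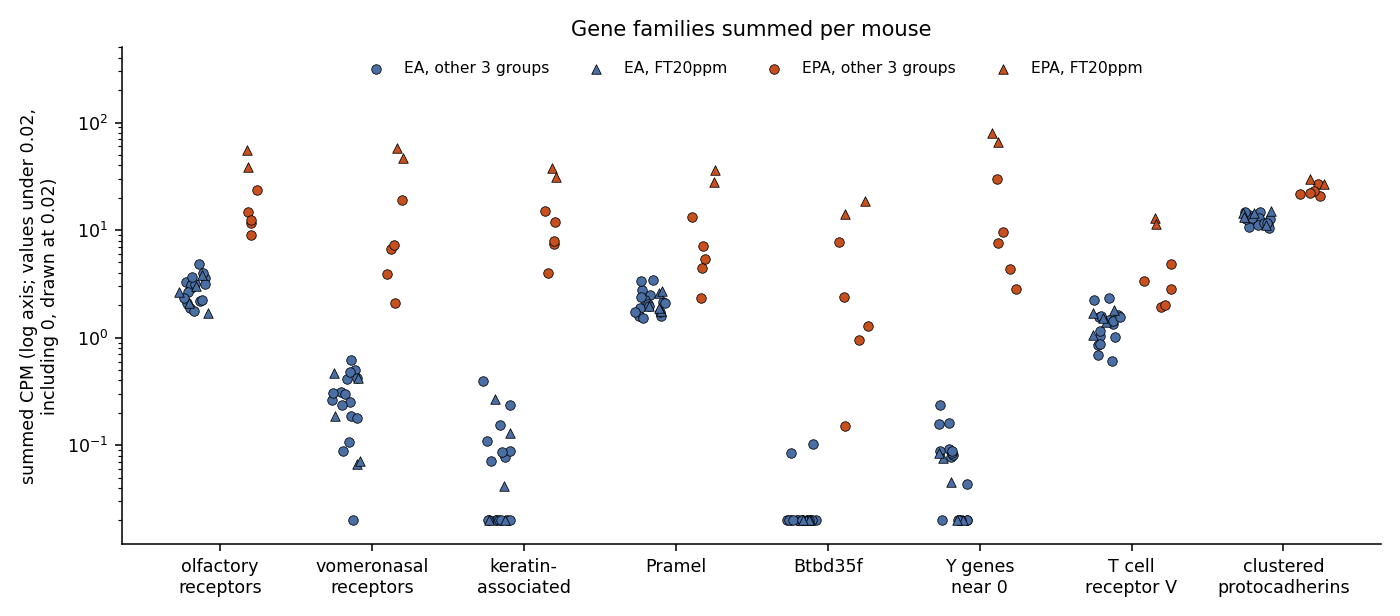
Summed CPM of 8 gene families per mouse (log axis, values under 0.02 drawn at 0.02), EPA mice against EA mice, FT20ppm as triangles. EPA mice lie above all EA mice in every family shown except Pramel and the T cell receptor V segments, and the FT20ppm mice isolated at EPA are highest in each, most weakly for the protocadherins.

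Single genes of this kind included Gm20873 on the Y chromosome, with 8 to 273 counts in the 7 EPA mice and at most 1 in the 77 EA mice. Cdr1, a gene best known from brain, had 10 to 176 counts in EPA mice and at most 1 in EA mice. Zscan4f, a gene of early embryos and stem cells, had 1.98 to 83.2 counts in EPA mice and at most 2 in the 77 EA mice, which overlapped. Krtap5-2, a hair protein gene, had 9.32 to 43.5 counts in EPA mice and none in any of the 77 EA mice. Gm16451 and Vmn1r240 held identical values in each EPA mouse, since their reads cannot be told apart. Of the 4327 genes, which were chosen as low in EA mice, 43 had at least 1 count in every EPA mouse and in none of the 21 EA mice. Over all 77 EA mice this held for 21 genes. The reverse was met by 0 genes of all 17695. It asks for a count in 21 mice rather than 7, which few low genes can meet, so these numbers cannot be set against each other.

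Among genes expressed in liver, the differences were many and mostly small. Of the 10415 genes with a median count above 8 over all 84 mice, 4169 differed between sites (edgeR quasi-likelihood test with group and block as covariates, Benjamini-Hochberg adjusted p under 0.05), which is 40.0% of the genes tested. Of these, 2119 were higher in EPA mice (20.3%) and 2050 lower (19.7%). Both the adjusted p and a change of at least 2-fold were met by 149 genes (1.43%), 113 higher (1.08%) and 36 lower (0.346%). The log2 fold change, EPA over EA, had a median of 0.01 over all genes tested with quartiles of -0.21 and 0.24, and its median size among the called genes was 0.40. In CPM, 378 of the tested genes had all 7 EPA mice above all 21 EA mice and 13 had all below. Without both EPA mice of FT20ppm 3267 genes were called, and when counts were scaled to totals alone, 77.2% of the 4424 called genes were higher in EPA mice, since that scaling moved the median of all genes to 0.14. Directions below are relative to the median gene.

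Coding length separated the genes that were higher from those that were lower. Protein-coding genes tested were divided into 5 classes of 1946 genes. In the shortest, of 56 to 780 coding bases, 7.86% were higher and 33.8% lower in EPA mice, with a median log2 fold change of -0.16. In the middle class, of 1185 to 1632 bases, 18.96% were higher and 17.8% lower. In the longest, of 2490 to 26397 bases, 43.1% were higher and 3.65% lower, with a median of 0.23. Set against the 20.3% and 19.7% of all genes tested, both ends of the range stood apart in opposite directions. With totals as the only scaling the shortest and longest class had medians of -0.03 and 0.36. The distance between them was nearly the same, since that scaling shifts all genes by about the same amount. Across 9730 coding genes, which are not independent replicates, Spearman's rho between the log2 fold change and coding length was 0.395, for transcript length 0.347, for the number of exons 0.303 and for GC content -0.115.

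Exon number and transcript length, which rise together with coding length, sorted the genes in a similar way. Of 1606 coding genes with 2 to 4 exons 11.3% were higher and 25.0% lower, and of 2057 genes with 17 or more exons 40.8% were higher and 5.10% lower. GC content separated genes less, with medians of 0.06 in the lowest of 5 classes and -0.04 in the highest. Level did so in the other direction, for the lowest of 5 classes of all genes tested by mean CPM in the outside mice had a median of 0.12 and the highest, above 62.8 CPM, a median of -0.13 with 40.5% lower. The contrast by length was present in each of 5 classes of level. In the lowest, the shortest and longest coding genes had medians of -0.04 and 0.30, and in the highest -0.23 and 0.14. In the class of highest level 60.5% of 479 short genes were lower and 43.3% of 289 long genes higher.

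The relation to length held in each EPA mouse. A length index was formed per mouse as the mean log2 CPM, centred on the 84 mice, of the longest class of coding genes minus that of the shortest. It was 0.28 and 0.35 in the Con0ppm mice isolated at EPA, 0.31 and 0.33 in FT20ppm, 0.30 and 0.29 in MT100ppm and 0.31 in MT10ppm. In the 21 EA mice it lay between -0.20 and 0.10 (median -0.07), so no EPA mouse overlapped them. Among the 56 EA mice of the other groups it lay between -0.26 and 0.36, and 1 of these, of PT80ppm (parathion at 80 ppm), reached the EPA range. The fold changes that sort the genes and this index come from the same libraries, so the index describes single mice and is no second test. The FT20ppm mice, so far above the others in genes near 0, were not set apart by this index.

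**Figure D3:**
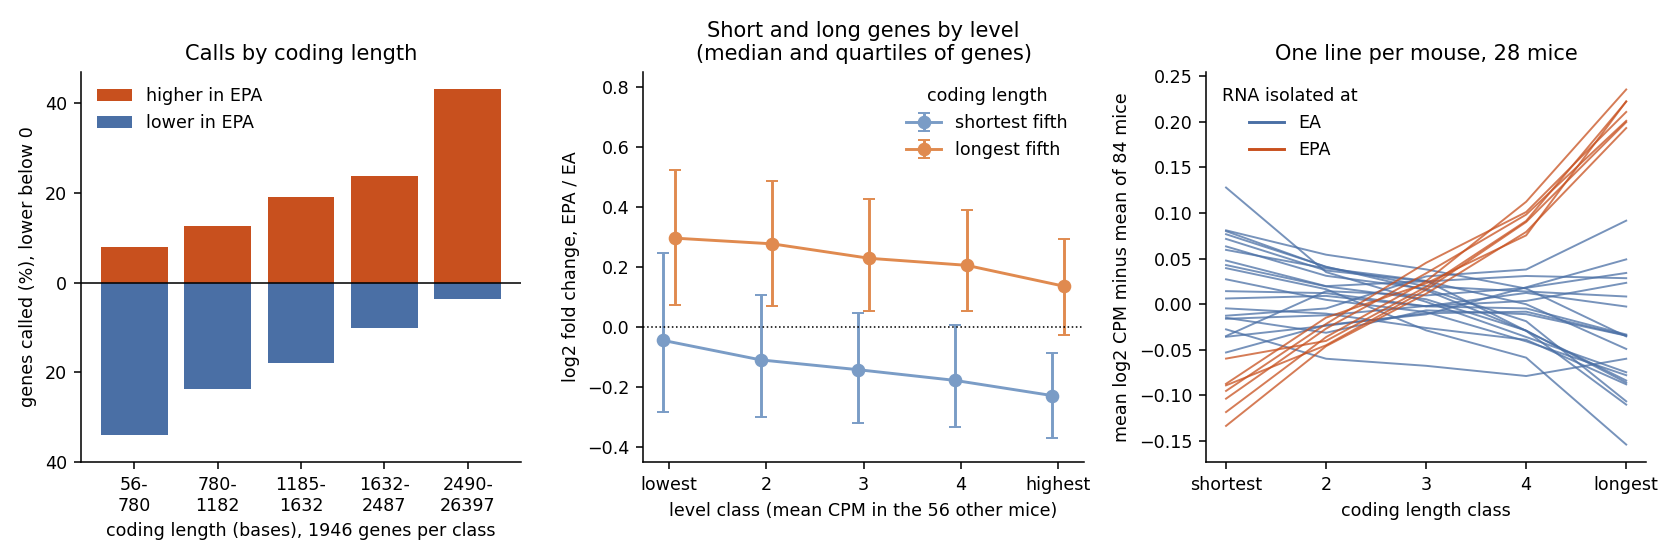
Left: percent of coding genes called higher (up) and lower (down) in EPA mice in 5 classes of coding length. Middle: median and quartiles of the log2 fold change over the shortest and longest coding genes in 5 classes of level. Right: mean centred log2 CPM by coding length class, 1 line per mouse. Calls shift from 33.8% lower to 43.1% higher with length, the shortest genes stay below the longest in each class of level, and the lines of all 7 EPA mice rise while most of those of EA mice are flat or fall.

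Among the biotypes tested, processed pseudogenes had the largest share lower in EPA mice. Of 494 tested, 249 were lower (50.4%) and 30 higher (6.07%), with a median of -0.24. A pseudogene of this kind resembles the parent gene it copies, so that parent and copy are counted with uncertainty. Coding genes with some values not whole were lower in 30.5% and higher in 15.9% of 1688 cases, against 15.2% and 22.3% of 8042 coding genes with whole counts.

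Among the 113 genes at least 2-fold higher, 96 had whole counts in all mice (84.96%, beside 78.5% of all genes tested), and their median level in the outside mice was 2.69 CPM beside 12.5 CPM for all genes tested. Among the 36 at least 2-fold lower, 22 had mostly values that were not whole (61.1%, beside 12.5% of all genes tested), and 9 were processed pseudogenes. Most strong decreases thus lay in genes whose reads were divided between genes.

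Adam4, a single-exon gene of the ADAM metalloprotease family (chromosome 12, 81466217-81468720, GRCm39), was the most increased. It had 5.56 to 8.31 CPM in EPA mice (median 6.68) and 0.357 to 2.13 CPM in the 21 EA mice (median 0.694). All 7 EPA mice stood above every EA mouse. The log2 fold change was 2.69 ± 0.19 (SE) with an adjusted p of 1.89e-10 from edgeR. Gm4787, another single-exon gene of the same region (chromosome 12, 81423765-81426238), had 4.89 to 7.12 CPM against 0.151 to 1.93 CPM and a log2 fold change of 2.54 ± 0.21 (SE). 5730522E02Rik had 4.13 to 6.45 CPM in EPA mice and 0.260 to 1.17 CPM in EA mice, also without overlap. In these 3 genes the EPA mice lay close together, unlike in the genes near 0.

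Apoc1, which encodes a small apolipoprotein of lipoprotein particles, was the most abundant of the strongly changed genes. It had 1492 to 3098 CPM in EPA mice (median 2478) and 482 to 1052 CPM in the 21 EA mice (median 538). No EPA mouse overlapped the 21 EA mice, although the EA mice of the other groups reached 2838 CPM. The log2 fold change was 1.80 ± 0.12 (SE), with an adjusted p of 7.57e-11 from edgeR. Most of its values were not whole, so part of its reads were divided between genes. Fap, a serine protease of the cell surface, had 1.66 to 3.83 against 0.435 to 1.33 CPM, and Mss51, a gene of skeletal muscle mitochondria, 2.50 to 4.20 against 0.392 to 1.56 CPM, both without overlap. Xkr6, a membrane protein of the XK family, had 2.24 to 5.42 against 0.371 to 1.32 CPM from values that were mostly not whole, and the pseudogene Gm17430 11.4 to 43.2 against 3.10 to 10.4 CPM. Rpl35, a protein of the large ribosomal subunit, had 22.9 to 107 CPM in EPA and 6.91 to 44.9 CPM in EA mice, which overlapped, and none of its values was whole.

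Eif3f, a subunit of the initiation factor that brings messenger RNA to the small ribosomal subunit, was the clearest decrease. It had 18.2 to 27.7 CPM in EPA mice (median 25.0) and 66.9 to 109 CPM in the 21 EA mice (median 80.1). All EPA mice lay below every EA mouse, and all of its counts were whole. The log2 fold change was -1.87 ± 0.08 (SE), with an adjusted p of 2.00e-15 from edgeR. Gulo, the enzyme of the last step of vitamin C synthesis, had 0.356 to 0.948 CPM in EPA and 1.58 to 4.27 CPM in EA mice, again without overlap, with a log2 fold change of -2.06 ± 0.21 (SE). Gm45799, the other gene of the 10 lowest with no overlap, had 0.358 to 5.32 CPM against 5.76 to 18.8 CPM and no whole value.

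The remaining genes of the 10 lowest overlapped between sites. Gm17938, a processed pseudogene with the lowest log2 fold change of all (-3.25 ± 0.71, SE), ranged up to 3.91 CPM in EPA and up to 17.98 CPM in EA mice. Sap18, a component of a histone deacetylase complex, had 0.108 to 2.78 CPM against 0.249 to 47.6 CPM, and Set, a histone chaperone, 0.101 to 24.1 CPM against 0.383 to 51.9 CPM. Ahcy, which breaks down S-adenosylhomocysteine, had a median of 3.22 CPM against 10.3 CPM, Pyroxd1, an oxidoreductase, 0.871 against 3.36 CPM, and the pseudogene Gm7241 2.699 against 4.53 CPM. These 6 genes had few or no whole counts. Hamp, which encodes the iron hormone hepcidin, had 38.3 to 155 CPM (median 60.8) against 0.364 to 310 CPM (median 213), with a log2 fold change of -1.52 ± 0.42 (SE).

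**Figure D4:**
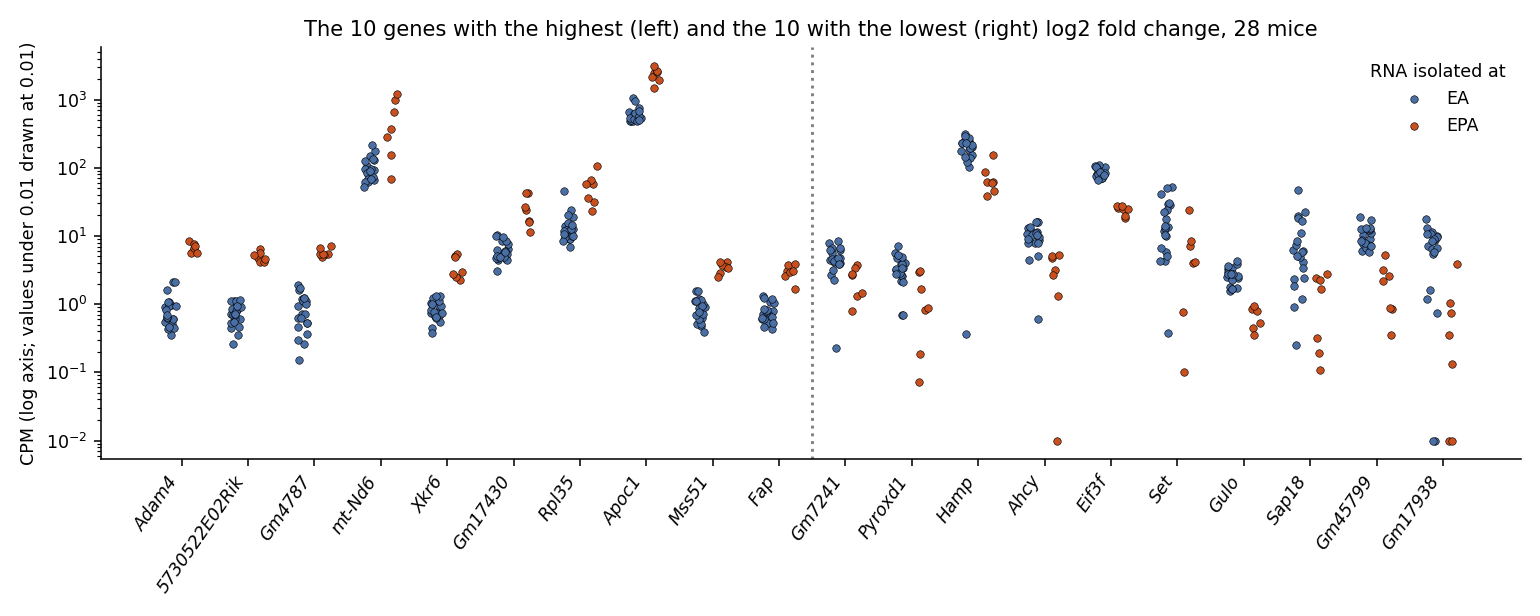
CPM (log axis, values under 0.01 drawn at 0.01) in the 28 mice of the 10 called genes with the highest and the 10 with the lowest log2 fold change, EPA beside EA. Adam4, 5730522E02Rik and Gm4787 lie in a narrow band in EPA mice above all EA mice, mt-Nd6 and Rpl35 spread widely, and Eif3f, Gulo and Gm45799 lie below all EA mice.

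Transcripts of the mitochondrial genome did not move together. Both strands of this circular genome are transcribed, and mt-Nd6, a subunit of respiratory complex I, is the protein-coding gene of one strand while the others lie on the opposite strand. mt-Nd6 had 68.3 and 366 CPM in the Con0ppm mice isolated at EPA, 979.6 and 1192 in FT20ppm, 286 and 647.5 in MT100ppm and 154 in MT10ppm. The 21 EA mice had 52.03 to 212 CPM (median 89.6), so 5 EPA mice stood above all of them and the other two within their range. The log2 fold change was 1.94 ± 0.37 (SE), with an adjusted p of 0.000189 from edgeR, and 1.34 without both EPA mice of FT20ppm. The order of the EPA mice was that of their genes near 0, except that the FT20ppm mice changed places. mt-Nd2 (-0.50), mt-Atp8 (-0.40), mt-Nd1 (-0.34) and mt-Cytb (-0.29) were lower, mt-Nd4l (-0.42, adjusted p = 0.0536) and mt-Nd3 (0.19) did not pass, and mt-Co3 and mt-Nd5 were below the filter. In all, 1 of 7 tested genes of this genome was higher and 4 were lower.

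Genes of the Y chromosome that the liver expresses were higher in EPA mice. Uty, a histone demethylase, had 47.9 ± 5.58 CPM in EPA mice (SD, n = 7) and 32.5 ± 3.80 CPM in EA mice (SD, n = 21), with a log2 fold change of 0.44. Ddx3y, an RNA helicase, rose by 0.31, Kdm5d, another demethylase, by 0.35 and Eif2s3y, an initiation factor subunit, by 0.81, all called by edgeR. Without both EPA mice of FT20ppm Kdm5d (0.35, adjusted p = 0.0537) no longer passed, and the other 3 did. Of 321 tested genes of the X chromosome 19.9% were higher and 18.7% lower, close to the shares of all genes tested.

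Gene lists were then described by how many members passed in each direction, beside the 20.3% higher and 19.7% lower of all genes tested. Members and lists were chosen with results of these data known. With totals as the only scaling, the medians of 12 of the 25 lists with at least 10 tested members changed sign. That scaling shifted all genes by about the same amount. That 0 of the 25 changed sides relative to the median of all genes was therefore fixed in advance. Ribosomal proteins and oxidative phosphorylation subunits had most of their members lower in the reported fit. Their median coding lengths were 495 and 477 bases, and that of the histones below was 378, all within the shortest class of coding genes. In that class 33.8% of genes were lower, and among those of the highest level 60.5%, with a median of -0.23. Whether these lists differ from other short and abundant genes was not tested. With totals only, 11 of the 34 ribosomal proteins were lower and 4 higher, and 21 of the 58 subunits were lower and 5 higher. Of 34 cytosolic ribosomal proteins 23 were lower and 2 higher (median log2 fold change -0.25), with Rpl11 at 8.94 to 17.1 CPM in EPA and 14.96 to 32.9 CPM in EA mice, and Rps6 at 289.5 to 343 against 334 to 421 CPM. Rps10 fell by 1.33, but its values, like those of Rpl11, were mostly not whole. Of 58 nuclear subunits of oxidative phosphorylation 38 were lower and 3 higher (median -0.29). Ndufv3, of complex I, had 252 to 368 CPM in EPA mice and 375 to 583 CPM in EA mice, without overlap, Cyc1, of complex III, fell by 0.70, Uqcrh, of the same complex, by 0.39, and Atp5pf, of the ATP synthase, by 0.46. Of 26 replication-dependent histone genes 10 were lower and 1 higher (median -0.26), and 5 lower and 0 higher without both EPA mice of FT20ppm, with H4c4 (-0.90), H2bc4 (-0.39) and H2bc13 (-0.34) lower and H3c6 (0.88) higher, all from values that were mostly not whole.

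Translation factors and proteasome subunits were less uniform. Of 57 translation factors 21 were lower and 4 higher (median -0.10), among them Eef1d (-0.64), Eif3k (-0.60) and the elongation factor Eef2 (-0.33). Scaled to totals alone their median was 0.04, so the direction of this list flips with the scaling. Of 34 proteasome subunits 12 were lower and 7 higher (median -0.09), and with totals only 6 were lower and 13 higher (median 0.04), so this direction flips as well. Psmd8, of the regulatory cap, had 298 to 369.5 CPM in EPA mice and 358 to 496 CPM in EA mice, and 6 of the 7 EPA mice lay below all EA mice. Psmb3 (1.14) moved the other way, beside Psmb7 (-0.54) and Psmb5 (-0.45), all of the catalytic core.

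Zinc finger proteins of the Zfp series, mostly transcription factors encoded by long final exons, were the large list that stood on the higher side. Of 214 tested 59 were higher and 11 lower (median 0.15). Zfp451 had 95.1 to 111 CPM in EPA mice and 57.1 to 82.2 CPM in EA mice, Zfp397 45.6 to 57.9 against 25.5 to 39.6 CPM, Zfp369 19.8 to 27.2 against 11.6 to 18.3 CPM and Zfp236 4.80 to 7.03 against 1.07 to 3.86 CPM. None of these 4 overlapped between sites, and their log2 fold changes ran from 0.43 to 1.16.

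Of 16 genes of fatty acid synthesis 4 were higher and 0 lower by edgeR, a share higher that is near the background, with 6 of the 16 at an unadjusted p under 0.05, 4 called by DESeq2 and 5 by limma. Srebf1, the regulator of lipogenesis, had 1.05 to 4.98 CPM in EPA mice (median 3.12) and 0.315 to 2.39 CPM in EA mice (median 1.07), with a log2 fold change of 1.40 ± 0.24 (SE). Acaca, acetyl-CoA carboxylase, had 138 to 367 against 57.3 to 239 CPM and a log2 fold change of 1.07, and 5 EPA mice lay above all EA mice for each of these genes. Mlxipl, the carbohydrate-responsive regulator, rose by 0.55 and Fasn, fatty acid synthase, by 0.84, the latter not called in blocks 3 and 4 alone (0.61). All 4 belong to the longest class of coding genes. The list's median was 0.29, and -0.05 in blocks 3 and 4 alone.

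Of 20 PPAR alpha target genes, most of them enzymes of fatty acid oxidation, 8 were lower and 0 higher by edgeR (median -0.20). Of these 20, 10 had an unadjusted p under 0.05, and 8 were called by DESeq2 and 3 by limma. With totals only 2 were lower and 1 higher (median -0.07). Acadl fell by 0.49, Acadm by 0.32 and Cpt2 by 0.21, and the CPM ranges of Acadl were 192 to 350.1 and 180.0 to 449. Of 24 cholesterol synthesis genes 3 were higher and 4 lower, or 8 and 1 with totals only, with Sc5d (0.78), a desaturase of the pathway's late steps, among the higher. Of 53 cytochromes P450 5 were higher and 11 lower (median -0.05, or 0.09 with totals as the only scaling, so the direction flips). Cyp21a1 (1.14) and Cyp2d11 (0.96) were higher and Cyp2d10 (-0.40) and the pericentral Cyp1a2 (-0.53) lower. Cyp2d11 and Cyp2d10 share reads with other genes.

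Of 24 secreted plasma proteins 11 were lower and 3 higher (median -0.19), or 7 lower and 5 higher with totals only. F9, coagulation factor IX, had 331 to 407 CPM in EPA and 387 to 499.7 CPM in EA mice, Serpinc1, antithrombin, fell by 0.55 and Ahsg, fetuin-A, by 0.48. Of 18 pericentral hepatocyte genes 8 were lower and 1 higher, with Rgn (-0.49) beside Gulo. With totals only 5 of these were lower and 2 higher, and their median turned from -0.06 to 0.08. Of 19 periportal genes 4 were lower and 1 higher, with Asl (-0.57), Igfbp2 (-0.78), Sds (-0.56) and Cyp2f2 (-0.38). The share lower was near the background for the periportal genes, and with totals only 3 of them were higher and 4 lower.

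**Figure D5:**
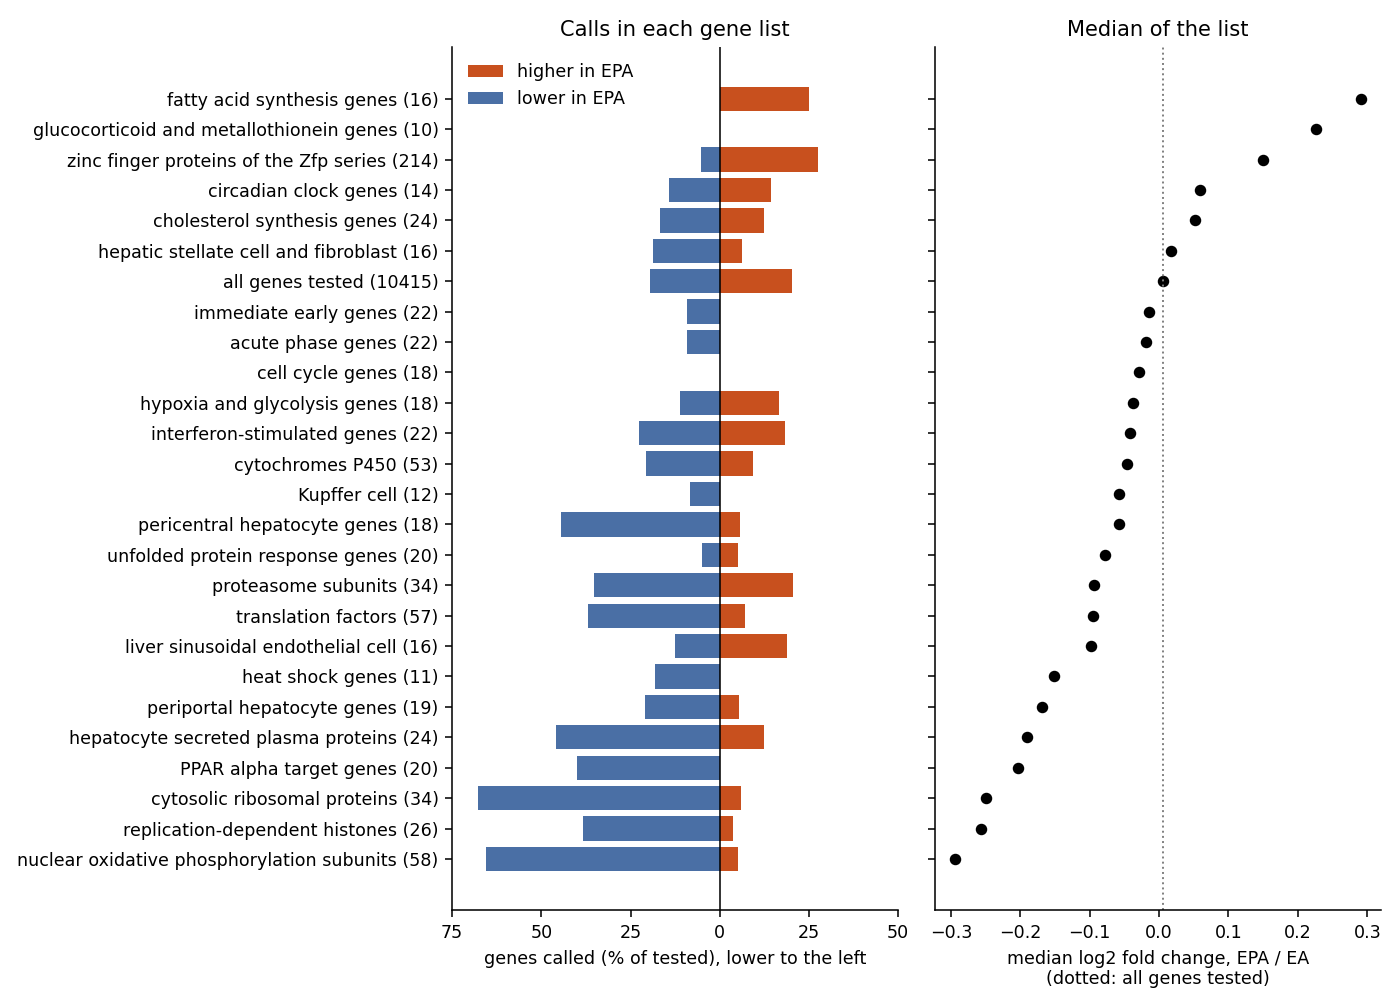
Percent of tested members called higher (right) and lower (left) in EPA mice and median log2 fold change for each gene list with at least 10 tested members, ordered by the median, number tested in parentheses, beside all genes tested. Oxidative phosphorylation subunits, histones and ribosomal proteins stand at the lower end, and fatty acid synthesis, glucocorticoid and metallothionein (0 called by edgeR) and Zfp genes at the higher.

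In lists that often move with stress or tissue handling, from 0% to 27.8% of the tested members were called, beside 40.0% of all genes tested. The lists are small, and a wide spread between mice, as for Lcn2 below, makes a call less likely. Few calls therefore do not show that these genes were unchanged. Of 22 immediate early genes, which respond within minutes to a stimulus, 2 were lower and 0 higher by edgeR, 2 passed an unadjusted p under 0.05, and DESeq2 called 2 and limma 0. These were Myc, at 3.19 to 27.7 CPM against 3.57 to 78.5 CPM (adjusted p = 0.0359), and Gadd45a at 27.7 to 87.6 against 23.03 to 100.7 CPM (adjusted p = 0.0473). Of 11 heat shock genes 2 were lower, Hsp90ab1 (-0.44) and Hspe1 (-0.31), and of 20 unfolded protein response genes Pdia4 was lower (-0.42) and Pdia6 higher (0.28). Of 10 glucocorticoid and metallothionein genes 0 were called by edgeR, with 1 at an unadjusted p under 0.05 and 1 called by each of DESeq2 and limma. Lcn2 had 5.94 to 6706 CPM in EPA and 10.7 to 7230 CPM in EA mice, and Angptl4 130.3 to 345 against 138 to 434 CPM. Of 18 cell cycle genes 0 were called by edgeR, with 1 at an unadjusted p under 0.05, 0 called by DESeq2 and 1 by limma, and Pcna (-0.16) and Rrm1 (-0.02) were close to the median gene. Of 18 hypoxia and glycolysis genes 3 were higher, Bnip3 (1.27), Ldha (0.36) and Vegfa (0.26), and 2 lower, among them Tpi1 (-0.30). Bnip3 had no whole values.

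Clock genes, whose transcripts rise and fall over the day, were split. Of 14 tested 2 were higher, among them Clock (0.59), and 2 lower, Dbp (-1.34) and Nr1d1 (-0.77). Dbp had 8.33 to 254 CPM in EPA mice (median 14.7) and 9.64 to 609 CPM in EA mice (median 73.9), and Nr1d1 6.53 to 41.6 against 6.66 to 61.99 CPM, so both ranges overlapped. Both medians mix blocks, for EA mice of block 1 had 145 to 609 CPM of Dbp, those of block 3 had 9.64 to 123 CPM and those of block 4 had 24.1 to 73.9 CPM. The EPA mice had 254 CPM in block 1, 8.33 to 46.4 CPM in block 3 and 10.7 to 14.7 CPM in block 4, so that they lay below all EA mice in block 4 and within their range in block 1, and overlapped them in block 3. Dbp was not called with limma (adjusted p = 0.0668), without the block covariate (0.0796) or without both EPA mice of FT20ppm (0.0556). Of 22 acute phase genes 2 were lower, Hamp and the fibrinogen chain Fgg (-0.58), and of 22 interferon-stimulated genes 4 were higher and 5 lower, or 6 and 1 with totals only, with Oas1a (0.80) and Rtp4 (0.50) higher and Ifit1 (-0.66) and Gbp3 (-0.33) lower.

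Markers of other liver cells gave no uniform direction. Of 12 tested Kupffer cell genes 1 was called, Cd68 (-0.72), and the summed list lay between 209 and 413 CPM in EPA and between 205 and 460.1 CPM in EA mice. Of 16 sinusoidal endothelial genes 3 were higher, among them Egfl7 (0.34) and Clec4g (0.29), and 2 lower, Bmp2 (-0.55) and Oit3 (-0.28), and the list summed to 677 to 875 against 664 to 830 CPM. Of 16 stellate cell and fibroblast genes 1 was higher, Col1a2 (0.46), and 3 lower, Hand2 (-0.49), Cygb (-0.44) and Ecm1 (-0.20). Of 4 cholangiocyte genes Tm4sf4 was lower (-0.39). Of 6 erythroid genes Bpgm (-0.34) and Hbb-bs (-0.83) were lower and Alas2 (0.43) higher, and the list summed to 107 to 225 against 114 to 318 CPM. In bulk RNA, fewer cells of a type and less RNA per cell cannot be told apart.

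Of the 5 T and NK cell genes tested, the 4 of B and plasma cells, the 2 of neutrophils and the single ones of mesothelium and acinar pancreas, edgeR called 0, with 0 at an unadjusted p under 0.05 and 0 called by DESeq2 or limma. For these lists Cd3d had 1.60 to 2.39 CPM in EPA and 0.893 to 4.20 CPM in EA mice, Nkg7 0.695 to 2.704 against 0.849 to 3.59 CPM, Ighm 5.70 to 11.2 against 1.39 to 23.1 CPM and Igkc 3.19 to 16.9 against 2.67 to 36.2 CPM. Ly6g had a log2 fold change of 0.26, S100a8 of 0.64, Upk1b of -0.46 and Cela1 of 0.20. No platelet gene passed the filter on low counts, and the platelet list summed to at most 2.78 CPM in EPA mice. The pancreatic acinar list summed to 3.98 to 44.7 CPM in EPA mice (median 4.48) and 1.56 to 7.52 CPM in EA mice (median 3.73).

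Of the markers of fat 2 of 4 tested were higher, of skeletal muscle 1 of 2 and of smooth muscle 1 of 3, and none was lower. Of all genes tested 20.3% were higher and 19.7% lower, and so few tested members cannot set a list apart from these shares. The list of fat cell genes summed to 137 to 508 CPM in EPA mice and 168 to 497 CPM in EA mice, and Fabp4, a fatty acid binding protein, had a log2 fold change of -0.19. Adrb3, the beta 3 adrenergic receptor of fat cells, had 4.13 to 6.98 CPM in EPA mice and 0.804 to 3.66 CPM in EA mice, without overlap, with a log2 fold change of 1.56 ± 0.19 (SE). Plin4, a lipid droplet protein, had 1.20 to 7.59 against 0.521 to 2.63 CPM. The fat cell hormone gene Adipoq lay at 0.0650 ± 0.0682 CPM in EPA mice (SD, n = 7) and 0.0469 ± 0.0651 CPM in EA mice (SD, n = 21), so this defining marker was near 0 at both sites. Mylk, myosin light chain kinase, had 68.6 to 103 against 43.6 to 66.95 CPM without overlap, while Tagln (0.31) and Cnn1 (0.77), other smooth muscle markers, did not pass. Acta1, skeletal muscle actin, was higher by 0.63 at an adjusted p of 0.0489 from edgeR, and lost its call in 9 of 19 alternatives. Snhg4, the sole tested member of the list of noncoding and small RNA host genes, was higher (0.37). The annotation used gives its identifier as protein-coding, with 1209 coding bases, and all its values were shared with another gene. It thus does not stand for noncoding RNA. Of 42 long noncoding RNAs tested by biotype, 9 were higher (21.4%) and 4 lower (9.52%), with a median of 0.10.

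The difference between sites was also compared between groups and between blocks. In the 21 mice of Con0ppm, FT20ppm and MT100ppm, edgeR called 0 of 10415 genes for an interaction of isolator and group, and 394 (3.78%) had an unadjusted p under 0.05. Without a filter on low counts, which takes in the genes near 0, it called 0 of 17636 genes, with 663 at an unadjusted p under 0.05 and a lowest adjusted p of 0.0502. In the 15 mice of blocks 3 and 4, it called 0 genes for an interaction of isolator and block, with 209 at an unadjusted p under 0.05, and limma called 0 with 232. With 2 EPA mice in a group and 3 in a block these tests had little precision, and a p that misses the limit does not show that the sites differed alike everywhere.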

How the data were processed

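Liver RNA of 84 mice had been measured by TempO-Seq. Per the labels and the study's methods, Partek was used by the authors to trim, to map to mm39 (STAR) and to quantify against Ensembl, and the deposited values used here are estimated counts per gene without normalization, part of them not whole because reads were divided between genes. A second deposited table, adjusted by the authors for block and isolator, was not used. Groups, blocks and isolators came from the labels. The labels do not say more about the samples than 1 per animal, so p-values measure the spread between mice.

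Counts were rounded and tested with edgeR 4.0.16 (quasi-likelihood test, TMM, genes with a median count above 8 over 84 mice, group and block as covariates, Benjamini-Hochberg) in R 4.3.3. DESeq2 1.42.0 and limma 3.58.1, the latter on log2(CPM + 1), were alternatives, with other scalings, filters and sets of mice. Features came from GENCODE's annotation of GRCm39, which named 17660 of 17695 identifiers. Other steps ran in Python 3.11.15 (pandas 2.3.3, matplotlib 3.10.9, scipy 1.17.1, numpy 2.4.6). On simulated data for this comparison (10415 genes), edgeR recovered 91 of 100 genes changed by 1 on the log2 scale. It recovered 59 of 100 changed by 0.5, with 10 false calls. Only these genes were changed, up and down alike, and no effect of group or block was simulated. In the data 40.0% of the genes were called, so these rates need not hold there.

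Members, lists and tests were chosen with earlier results of these data known. Genes named are the 10 called, at least 2-fold changed genes with the highest and the 10 with the lowest log2 fold change, and, per list, up to 4 called members of smallest adjusted p, or up to 2 of highest mean count where none was called. Genes near 0, gene families, the genes of the Y chromosome, mt-Nd3, mt-Nd4l, mt-Cytb, mt-Co3, mt-Nd5, Adipoq, Fabp4, Tagln and Cnn1 were named after their values were seen. Some genes that this rule chose are not reported here.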

Additional observations from a re-analysis of the deposited data

Results flagged for a closer look

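Among the 7 EPA mice, 132 values (library measures, the length index, genes near 0, families and named genes) were examined for a mouse whose gap to its nearest neighbour took more of the range than Dixon's limit allows at 5%, and 14 were found. Chance gives about 1 in 20. The FT20ppm mice do not appear for genes near 0 because they stand apart as a pair.

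The MT10ppm mouse, the single EPA mouse of block 1, was highest for Dbp (254 CPM, next 46.4), mt-Nd2 (212 CPM, next 129), mt-Nd1 (388 CPM, next 271) and Hamp (155 CPM, next 87.2). FT20ppm replicate 4 was highest for Myc (27.7 CPM, next 5.42), and FT20ppm replicate 6 highest for Psmd8 (369.5 CPM, next 319). Con0ppm replicate 6 was highest for Ldha (362 CPM, next 249), Cela1 (6.05 CPM, next 2.701) and Acta1 (10.1 CPM, next 5.51). Con0ppm replicate 3 was highest for Hbb-bs (22.5 CPM, next 11.2) and lowest for Rrm1 (23.3 CPM, next 26.4). MT100ppm replicate 6 was highest for Set (24.1 CPM, next 8.44), Gm17938 (3.91 CPM, next 1.04) and the bitter taste receptors (1.03 summed CPM, next 0.608).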

How the results depend on the processing

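The number of genes called was within 1.5 times that of the reported fit in all 19 alternatives, from 2780 in blocks 3 and 4 of 3 groups to 5550 without a filter on low counts, and from 3169 (without the MT10ppm mouse) to 4008 when 1 EPA mouse was left out. Of the 4169 genes, 2621 were also called in blocks 3 and 4 and 3129 without both EPA mice of FT20ppm, the latter an alternative chosen after seeing the data. With totals as the only scaling 3126 of them were called, and 4150 kept their direction. Without a filter, 1650 genes were called and at least 2-fold changed, and with limma 94. The share of called genes higher in EPA mice was 62.7% without a filter, 77.2% with totals only and 77.3% with limma on log2(CPM + 1), which also uses totals, whereas it was 50.8% in the reported fit.

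With totals only, the list medians were -0.11 for ribosomal proteins, -0.16 for oxidative phosphorylation, 0.039 for translation factors (reversed), 0.28 for Zfp genes, -0.055 for plasma proteins and 0.088 for cytochromes P450 (reversed), and those of the shortest and longest coding genes and of processed pseudogenes were -0.026, 0.36 and -0.11, each raised by about the shift of the median gene. In blocks 3 and 4 alone fatty acid synthesis genes had a median of -0.051 (reversed), and the cause was not tested. Among genes with a mean count of at least 50 the shortest and longest classes had medians of -0.18 and 0.21. The difference in total count turned from -79837 to 26450 without the MT10ppm stratum and to 309700 without FT20ppm. The share of the 100 highest genes was -1.62 and -1.74 percentage points under these alternatives, and that of values not whole 0.305 without FT20ppm, at p of 0.0880, 0.0972 and 0.0694 in the exact permutation test. Of 119 named genes, 31 lost their call under at least 1 alternative, among the 20 most changed Hamp, Sap18 and Set (Hamp with limma and in blocks 3 and 4, at adjusted p above the limit), and no called gene changed sign. Among the named genes without a call, Angptl4, Rrm1, Nkg7, Igkc, Ighm and Cela1 changed sign under at least 1 alternative. Leaving out 1 EPA mouse ended the call of 20 of them, at adjusted p from 0.0505 to 0.533 by edgeR. Without the MT10ppm mouse 15 calls were lost (among them Myc, Pdia4, Vegfa, Bnip3, Nr1d1, Fasn, Tm4sf4, Clec4g, Bpgm, Hbb-bs, Alas2, Acta1, Sap18 and Set), and without any other single EPA mouse 4 to 10, which add Gadd45a, Pdia6, Ldha, Col1a2 and Ecm1. No paired analysis was possible because the replicate numbers only name mice within a group. Matching mice by group and block instead, with each combination as a term, gave 3338 called genes. Depth limits statements on genes near 0, whose counts per mouse are few.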
